A study of Homo sapiens with 15 samples.

Results

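Nephronectin (NPNT) and 9 integrin chains were followed in bulk RNA-seq through the cardiac differentiation of human embryonic stem cells. The 10 genes were chosen by name, as an extracellular matrix ligand, the receptor chains that bind it and other chains of the same receptor family, out of 60605 genes in the table. NPNT was among them because its level was already known to differ between the culture arms, so the differences between arms below are a description of these libraries and carry no test. Of the 10 genes, 9 reached 1 FPKM (fragments per kilobase of exon, scaled to the total of the library) in at least 1 library and were among 21206 genes that passed this filter. ITGA4 did not reach it.

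All libraries came from the wild-type H1 line. Mesendoderm was induced with CHIR99021, an activator of WNT signalling, on day 0, followed by insulin on day 1, and the cells were sampled on days 0, 1 and 2 as shared time points. From day 2 they were kept in 3 arms that were sampled on days 3, 5, 7 and 10. NP-ctrl cells were not passaged and received no inducer. NP-IWP2 cells were not passaged and were given IWP2, which blocks the secretion of WNT ligands, from day 2. The treatment was limited in time, and by the study's protocol the medium held no added supplement from day 5 on. Passaged cells were dissociated with EDTA and replated on day 2, so this arm differed from both static arms in cell contacts, in density and in handling, which cannot be told apart here. The paper states that after its survival tests a ROCK inhibitor, Y27632, went into every later differentiation experiment, and it reports this time course after them. The labels do not say whether these passaged cells received it, so it is a further possible difference of this arm. Each of the 15 groups had 1 library, with 13254723 to 20250115 counts. The libraries were of 1 cell line, and p-values rest on the spread over days and arms, not on repeated cultures. The summed FPKM of POU5F1, NANOG and SOX2, markers of pluripotent cells, was 760 on day 0, and on day 10 it was 0.12 in NP-ctrl, 0.10 with IWP2 and 4.89 after passaging. The passaged value was SOX2 alone, with POU5F1 and NANOG at 0 counts there. The summed FPKM of 6 cardiomyocyte markers, TNNT2 among them, was 472 in NP-ctrl, 1442 with IWP2 and 3446 after passaging on day 10. The passaged day 3 library had 1.53% of its counts from the mitochondrial genome and the passaged day 10 library 10.3%, against 3.71 to 6.14% in the other 13, so values are also given without these days where they change.

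Integrins are receptors made of 1 alpha and 1 beta chain that bind matrix proteins outside the cell and connect through talin and kindlin adaptors to the actin cytoskeleton. Nephronectin is a secreted basement membrane protein whose RGD motif is bound by integrin α8β1, a pair of proteins that is best known from the outgrowth of the ureteric bud in the developing kidney. The β1 chain also pairs with α1 and α2, which bind collagen, with α5, which binds fibronectin, and with α6 and α3, which bind laminin, while αV pairs with β1, β3, β5, β6 or β8 in receptors for vitronectin, fibronectin and latent TGF-β.

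Because NPNT and ITGA8 make up the ligand and receptor pair, the sequences upstream of their start sites are shown first. NPNT (ENSG00000168743) spans chr4:105894775-106004027 on the plus strand in the annotation used here, and its window at chr4:105895221-105895439 (GRCh38.p14, RefSeq start, bases within annotated exons left out) held 79.5% G and C. ITGA8 (ENSG00000077943) spans chr10:15513954-15719922 on the minus strand and its window at chr10:15719923-15720172 held 68% G and C. Capitals mark the GC box, GGGCGG on either strand, and each sequence reads 5′ to 3′ on the strand of its gene.
NPNT: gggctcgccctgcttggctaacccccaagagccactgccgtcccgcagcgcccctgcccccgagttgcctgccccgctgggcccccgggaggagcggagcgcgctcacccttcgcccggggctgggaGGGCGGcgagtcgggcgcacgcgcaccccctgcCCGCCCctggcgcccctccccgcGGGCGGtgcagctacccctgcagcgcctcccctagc
ITGA8: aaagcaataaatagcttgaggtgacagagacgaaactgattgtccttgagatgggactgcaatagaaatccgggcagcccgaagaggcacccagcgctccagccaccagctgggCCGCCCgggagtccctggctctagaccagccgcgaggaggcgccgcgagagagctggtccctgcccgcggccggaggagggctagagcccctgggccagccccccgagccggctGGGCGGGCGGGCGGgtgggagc
The NPNT window held 3 GC boxes, starting 123, 90 and 67 bases before the start site. The ITGA8 window held 4, at 136, 22, 18 and 14 bases before it, and the last 3 of these overlap. A GC box was present in 42.6% of 35116 RefSeq windows of 250 bases. The CCAAT box was found on neither strand of the NPNT and ITGA8 windows and in 32.0% of all windows. The TATA box, searched as TATAAA, was in neither and in 10.7% of all windows. The core of the TEAD motif, GGAATG, was in neither and in 11.9% of all windows.

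NPNT was at the edge of detection until day 3 and was then highest in NP-ctrl. Its level was 0.05, 0.03 and 0.06 FPKM on days 0, 1 and 2, from 5, 3 and 7 counts. In NP-ctrl it was 0.34, 19.0, 69.9 and 169 FPKM on days 3, 5, 7 and 10. In NP-IWP2 it was 0.06, 3.22, 4.28 and 17.3 FPKM on the same days. In passaged cells it was 0.04, 1.41, 0.71 and 3.46 FPKM. From day 5 on, the NP-ctrl library was the highest and the passaged library the lowest on every day. The NP-ctrl levels of days 5, 7 and 10 all lay above every level of the other arms.

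The ratios between libraries sized these differences, with exact 95% intervals that cover counting error only. NPNT was 48.8-fold lower in passaged than in NP-ctrl cells on day 10 (interval 43.7 to 54.7) and 98.6-fold lower on day 7 (77.2 to 128). NP-IWP2 was 9.76-fold below NP-ctrl on day 10 and 16.3-fold below it on day 7. The passaged library was 5.00-fold below NP-IWP2 on day 10 (4.44 to 5.65). In the order of the libraries by NPNT level, passaged day 10 and NP-IWP2 day 5 could not be separated by counting error (ratio 1.08, 0.914 to 1.27). Neither could day 2, NP-IWP2 day 3, day 0 and passaged day 3, which followed each other at 0.04 to 0.06 FPKM, or day 1 below them.

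Over days 3 to 10 together, the log2 change of NPNT fitted by edgeR was -5.09 (SE 0.44) in passaged against NP-ctrl, -3.27 (SE 0.39) in NP-IWP2 against NP-ctrl and -1.81 (SE 0.40) in passaged against NP-IWP2. The contrasts against NP-ctrl share its 4 libraries. Without day 7 the first was -4.45, and without day 5 it was -5.69. Over all alternatives run it ranged from -5.69 to -3.51. The fitted log2 difference between day 10 and day 3 was 8.43 and rests on 3 to 34 counts per library on day 3. NPNT passed the filter only through libraries of days 5 to 10, so its change over days is given with no test. For the genes that passed it on earlier days too, the change over days was tested jointly over days 3, 5, 7 and 10 by edgeR's quasi-likelihood test. Its p-value asks whether any of these days differ and does not test the change from day 3 to day 10 alone. The genes were chosen with earlier results of these data known, so the p-values over days are a description. The steepness of NPNT over days was not shown to differ between arms, with a difference in log2 slope per doubling of day of -2.24 (SE 1.49, edgeR adjusted p = 0.48) for passaged against NP-ctrl and -1.15 (SE 1.48, edgeR adjusted p = 0.94) for NP-IWP2 against NP-ctrl.

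**Figure D1:**
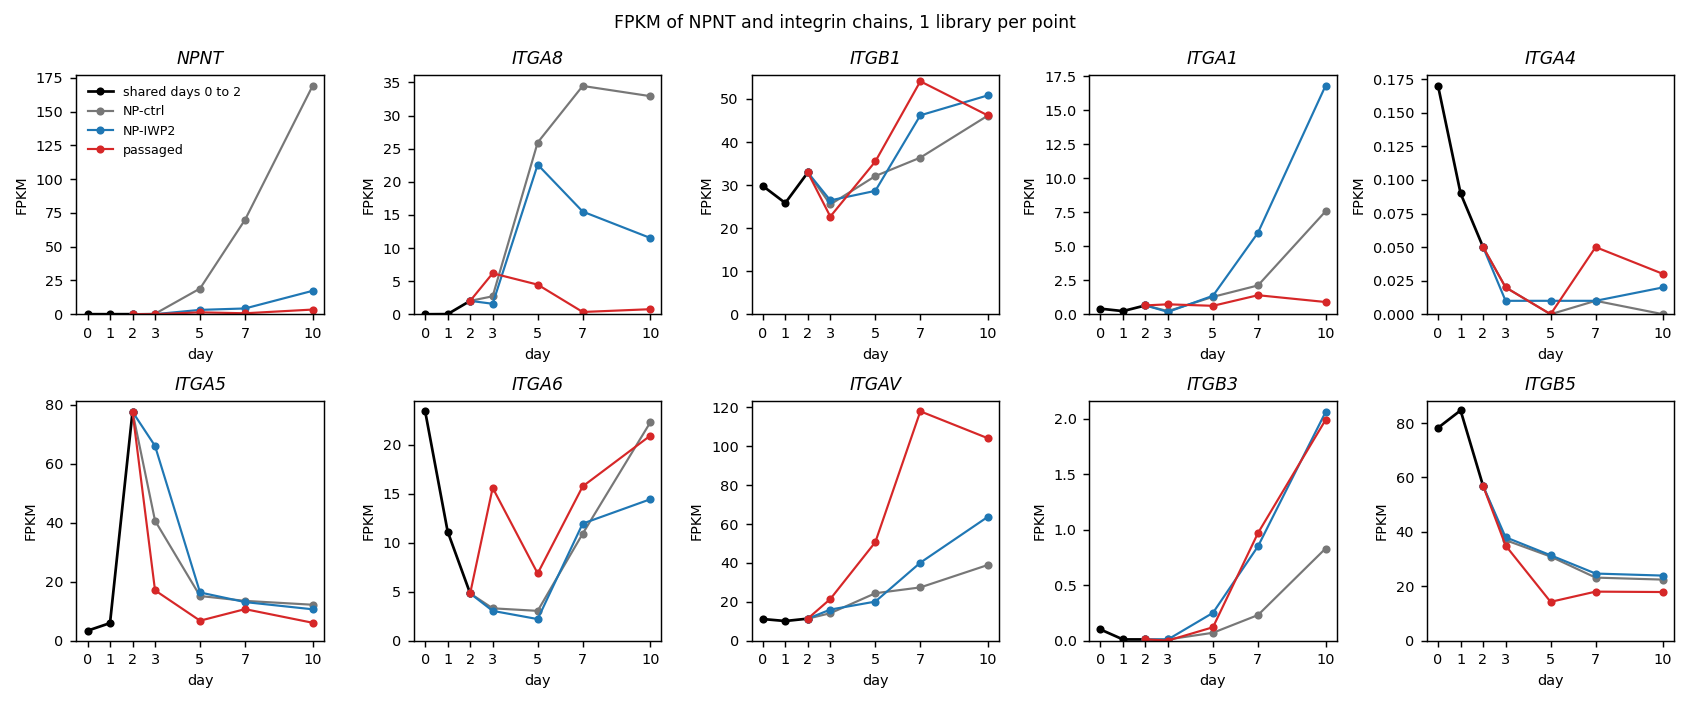
FPKM (y axis, linear from 0, each panel with its own scale) of NPNT and 9 integrin chains by day of differentiation (x axis), with 1 library per point, shared days in black, NP-ctrl in grey, NP-IWP2 in blue and passaged in red. NPNT reached 169 FPKM in NP-ctrl on day 10 against 17.3 and 3.46 in the other arms, and ITGA8 was highest in passaged cells on day 3 and lowest there from day 5 on.

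ITGA8, the alpha chain that pairs with β1 to bind nephronectin, appeared earlier than its ligand. It had 0 counts on day 0 and 3 on day 1, and stood at 2.02 FPKM on day 2, which was at least 83.5-fold above a floor of 3 counts on day 0. In NP-ctrl it was 2.71, 25.9, 34.5 and 32.9 FPKM on days 3, 5, 7 and 10. In NP-IWP2 it was 1.58, 22.6, 15.5 and 11.5 FPKM. In passaged cells it was 6.18, 4.47, 0.34 and 0.76 FPKM. The passaged library was thus the highest of the 3 arms on day 3 and the lowest from day 5 on, and no static library of days 5 to 10 was as low as any passaged one.

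Between day 3 and day 10 the arms went opposite ways. ITGA8 in NP-ctrl was 12.2-fold higher on day 10 than on day 3 (exact interval 10.8 to 13.7) and in NP-IWP2 7.30-fold higher (6.18 to 8.67). In passaged cells it was 8.10-fold lower (6.45 to 10.3). The difference in log2 slope was -3.91 (SE 1.38) for passaged against NP-ctrl and did not pass the test (edgeR adjusted p = 0.19), whereas DESeq2 gave an adjusted p of 0.037. Against NP-IWP2 it was -3.20 (SE 1.46, edgeR adjusted p = 0.67). The day effect common to the arms did not pass either (edgeR adjusted p = 0.84). On day 7 passaged cells were 102-fold below NP-ctrl (74.0 to 145) and 46.0-fold below NP-IWP2 (33.2 to 65.5), and on day 10 they were 43.2-fold and 15.1-fold below them. The mean log2 change over days 3 to 10 was -2.81 (SE 1.24) in passaged against NP-ctrl and -4.56 without day 3. In the order of levels, NP-ctrl day 7 and NP-ctrl day 10 could not be separated by counting error (ratio 1.05, 0.997 to 1.10), and all other neighbours down to day 1 could.

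Ligand and receptor chain did not keep a fixed proportion. On the FPKM scale NPNT was 0.125 times ITGA8 in NP-ctrl on day 3, and the factor was 0.734, 2.03 and 5.13 on the later days. In NP-IWP2 the same ratio was 0.143, 0.276 and 1.503 on days 5, 7 and 10. In passaged cells it was 0.315, 2.09 and 4.55, at much lower levels of both. The NP-IWP2 ratio was the lowest of the 3 arms on each of these days. The NP-ctrl and passaged ratios lay close together on days 7 and 10.

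Markers of some other cell types also differed between the arms. The summed FPKM of 5 mesenchyme markers (COL1A1, COL3A1, DCN, LUM and PDGFRA) was 4010 in NP-ctrl, 1083 with IWP2 and 89.4 after passaging on day 10, with 5, 5 and 4 of the 5 at 1 FPKM or more. For 5 endoderm and liver markers (AFP, APOA1, FOXA2, SOX17 and TTR) the sums were 3671, 1095 and 17.9 FPKM, with 5, 5 and 1 at 1 FPKM or more and FOXA2 at 0 counts in passaged cells. For the epicardial markers WT1, TBX18 and UPK3B they were 62.1, 70.2 and 0.17 FPKM, with none at 1 FPKM in passaged cells. This sum was not lower with IWP2 than in NP-ctrl, with TBX18 at 65.1 against 40.6 FPKM. WT1 (3.53 against 10.0 FPKM) and UPK3B (1.53 against 11.5 FPKM) were lower with IWP2. For 4 endothelial markers the sums were 118, 118 and 121 FPKM and for 4 smooth muscle markers 99.3, 89.5 and 127, in the same order on day 10. Most of the endothelial sum was KDR, at 93.0, 100 and 119 FPKM, and 3, 4 and 1 of the 4 were at 1 FPKM or more. TEK was 22.8, 13.5 and 0.68 FPKM, and CDH5 and PECAM1 were also lowest after passaging. On day 3 the mesenchyme sum was 125, 95.6 and 172 FPKM in the same order. Over days 5 to 10 it ranged from 1668 to 4010 in NP-ctrl, from 982 to 1159 with IWP2 and from 89.4 to 410 after passaging. Their part in the NPNT and ITGA8 differences was not tested, and in bulk RNA fewer cells of a type and less RNA per cell cannot be told apart. The 5 kidney and intermediate mesoderm markers, PAX2 and LHX1 among them, summed to 179 FPKM on day 2, when ITGA8 was first seen above the floor, with LHX1 alone at 177, and to 0.42 to 2.76 FPKM on day 10.

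The genes whose levels ran closest to NPNT over the 15 libraries were EPHA3, SOX6, DLG2, CUBN and ANXA8L1, with Pearson correlations of log2(FPKM + 1) of 0.978, 0.970, 0.966, 0.964 and 0.961 among 13874 protein-coding genes. EPHA3, an ephrin receptor, was 15.8 FPKM in NP-ctrl, 6.08 with IWP2 and 1.62 after passaging on day 10. SOX6, a transcription factor, was 11.7, 5.32 and 1.52 FPKM there. ANXA8L1 has a close copy, ANXA8, between which reads can be split. ITGA8 ran closest to RSPO4 (0.952), an activator of WNT signalling, COL5A2 (0.950), a fibrillar collagen, HOXB5 (0.946), ZNF630 (0.944) and SYT10 (0.943). COL5A2 was 115 FPKM in NP-ctrl, 62.1 with IWP2 and 13.5 after passaging on day 10, and HOXB5 was 18.5, 3.70 and 0.14 FPKM. NPNT and ITGA8 correlated at 0.794 with each other. The libraries share days and arms, so these values describe the pattern and have no p.

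ITGB1, the beta chain that ITGA8 needs, was present in every library, at 22.7 to 54.1 FPKM. It was 29.8, 25.8 and 32.9 FPKM on days 0 to 2. In NP-ctrl it was 25.5, 32.1, 36.4 and 46.2 FPKM on days 3, 5, 7 and 10. In NP-IWP2 it was 26.5, 28.7, 46.2 and 50.8 FPKM, and in passaged cells 22.7, 35.5, 54.1 and 46.2. All arms were higher on day 10 than on day 3, and the levels of the arms overlapped. Its fitted log2 increase from day 3 to day 10 was 1.02. The joint test over days gave an edgeR adjusted p of 0.0098, and of 0.087 without day 3. The log2 change was 0.19 (SE 0.18) in passaged against NP-ctrl and 0.06 (SE 0.18) in NP-IWP2 against NP-ctrl, and on day 10 the passaged to NP-ctrl ratio was 1.00 (0.973 to 1.03). ITGA8 stood at 71.4% of the ITGB1 level in NP-ctrl on day 10, at 22.7% with IWP2 and at 1.65% after passaging, on the FPKM scale, which is per length of all annotated exons.

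ITGAV, the αV chain of the vitronectin receptors, was highest in passaged cells on every day. It was 11.1, 10.1 and 11.3 FPKM on days 0 to 2. In NP-ctrl it was 14.1, 24.4, 27.4 and 38.9 FPKM on days 3 to 10, and in NP-IWP2 15.9, 20.1, 40.1 and 63.7. In passaged cells it was 21.4, 50.7, 118 and 104 FPKM. The log2 change in passaged against NP-ctrl was 1.35 (SE 0.26) over the days, and on day 7 the ratio was 4.31 (4.15 to 4.49). Its fitted increase from day 3 to day 10 was 1.98 on the log2 scale, and the joint test over days gave an edgeR adjusted p of 0.0027. Its slope differences did not pass (edgeR adjusted p = 0.26 for passaged against NP-ctrl).

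ITGA6, an alpha chain of laminin receptors, was lower on days 1 and 2 than on day 0, and higher than on day 2 in passaged cells 1 day after replating. It was 23.4, 11.1 and 4.81 FPKM on days 0, 1 and 2. On day 3 it was 3.29 FPKM in NP-ctrl, 3.03 with IWP2 and 15.6 after passaging. On days 5, 7 and 10 it was 3.03, 10.9 and 22.3 FPKM in NP-ctrl, 2.19, 11.9 and 14.4 with IWP2 and 6.85, 15.7 and 20.9 after passaging. The passaged library was above both static ones on days 3, 5 and 7, and on day 10 it lay between them. ITGA6 changed with day in the joint test over days (edgeR adjusted p = 0.0016). Its fitted log2 increase from day 3 to day 10 was 1.85.

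ITGA5, the fibronectin receptor chain, peaked on day 2. It was 3.34, 5.91 and 77.6 FPKM on days 0, 1 and 2, a 23.3-fold difference between day 0 and day 2 (exact interval 21.1 to 25.7). On day 3 it was 40.7 FPKM in NP-ctrl, 66.0 with IWP2 and 17.0 after passaging. On days 5, 7 and 10 it was 15.1, 13.5 and 12.1 FPKM in NP-ctrl, 16.3, 13.04 and 10.6 with IWP2 and 6.73, 10.7 and 6.03 after passaging, which were the lowest of the arms on each day. Its fitted fall from day 3 to day 10 was 1.91 on the log2 scale. The joint test over days passed (edgeR adjusted p = 0.0014), a call that was lost without day 3 (edgeR adjusted p = 0.37).

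ITGA1, a collagen receptor chain, was highest on day 10 in both static arms and not in passaged cells. It was 0.41, 0.23 and 0.65 FPKM on days 0 to 2. In NP-ctrl it was 0.23, 1.28, 2.12 and 7.57 FPKM on days 3, 5, 7 and 10. In NP-IWP2 it was 0.17, 1.36, 6 and 16.8 FPKM, and in passaged cells 0.73, 0.62, 1.40 and 0.90. The passaged library was the highest on day 3 and the lowest from day 5 on. From day 3 to day 10 it was 97.9-fold higher in NP-IWP2 (72.5 to 135), 32.6-fold higher in NP-ctrl (25.7 to 42.0) and 1.23-fold higher in passaged cells (1.02 to 1.499). ITGA1 passed the filter only through 7 libraries of days 5 to 10, so its change over days is given with no test. It was the 1 of 9 tested genes whose log2 slope differed between passaged and NP-IWP2 cells, by -3.40 (SE 0.43, edgeR adjusted p = 0.046), where 0.0377% of all genes were called. Of those 7 libraries, 3 were of NP-IWP2 and 1 was passaged, so this call is not independent of the filter. Leaving out any of the 4 days ended it, with edgeR adjusted p-values of 0.11 to 0.33. Against NP-ctrl the difference was -2.24 (SE 0.41, edgeR adjusted p = 0.054, and 0.0084 with no filter), and DESeq2 gave an adjusted p of 9.2e-05. No slope difference of the 9 genes passed the edgeR test for passaged against NP-ctrl or NP-IWP2 against NP-ctrl, where 0.448% and 0% of all genes were called. ITGA1 overlaps PELO on the same strand, whose reads may enter its count.

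The remaining chains were β5, β3 and α4. ITGB5, which pairs with αV, was 78.3, 84.7 and 56.9 FPKM on days 0 to 2 and the most abundant beta chain there. It was 37.0, 30.9, 23.2 and 22.4 FPKM in NP-ctrl on days 3 to 10, 38.0, 31.4, 24.7 and 23.9 with IWP2 and 35.0, 14.2, 18.0 and 17.9 after passaging. Its day effect did not pass the test (edgeR adjusted p = 0.073, DESeq2 0.020). ITGB3, another partner of αV, was at 0.10 FPKM or less until day 3. It was 0.07, 0.23 and 0.83 FPKM in NP-ctrl on days 5, 7 and 10, 0.25, 0.85 and 2.06 with IWP2 and 0.12, 0.97 and 1.99 after passaging. On day 10 NP-IWP2 and passaged cells could not be separated (ratio 0.965, 0.789 to 1.18), and both lay above NP-ctrl, passaged cells by 2.39-fold (1.81 to 3.19). ITGB3 had 0 or 1 counts per library on day 3 and passed the filter only through 2 libraries of day 10, so its change over days is given with no test. It overlaps an annotated readthrough gene on the same strand. NPNT overlaps INTS12 and ITGA4 overlaps CERKL on the opposite strand, and ITGB5 overlaps annotated noncoding genes and a pseudogene on its own strand. ITGA4, a chain that binds VCAM1 and fibronectin, had 30 counts on day 0, 18 on day 1, 11 on day 2 and 0 to 8 afterwards, at 0.17 FPKM or less in every library.

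For the genes together, 7 of the 9 that passed the filter changed with day, where 28.3% of all genes did. NPNT, ITGA1 and ITGB3 are among these 7 and passed the filter only through their late libraries, so this count is a description and nothing is read from it. In the arm contrasts, NPNT and ITGAV were among the genes with an edgeR adjusted p under 0.05 for passaged against NP-ctrl (4.4% of all genes), NPNT for NP-IWP2 against NP-ctrl (0.0189%) and none for passaged against NP-IWP2 (1.33%). These contrasts chose the genes, so nothing is read from the counts.

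On day 3, 1 day after replating, ITGA6 and ITGA8 were higher and ITGA5 was lower in the passaged library than in either static arm or on day 2. By smaller ratios, ITGAV was also higher and ITGB1 and ITGB5 were also lower than in each of these. The direction depended on scaling for ITGB1 and ITGB5 against NP-ctrl and for ITGB5 against NP-IWP2. Against NP-ctrl day 3, ITGA6 was 4.74-fold higher in passaged cells (exact interval 4.22 to 5.34), ITGA8 2.28-fold higher (1.99 to 2.62), ITGA1 3.14-fold higher (2.37 to 4.19) and ITGAV 1.52-fold higher (1.43 to 1.61). ITGA5 was 2.39-fold lower (2.26 to 2.53), and NPNT had 3 counts against 34, a ratio of 0.105 (0.0206 to 0.333). Against NP-IWP2 day 3, ITGA6 was 5.15-fold higher (4.52 to 5.88), ITGA8 3.91-fold higher (3.28 to 4.70) and ITGA5 3.88-fold lower (3.68 to 4.09). Against day 2, the state before replating, ITGA6 was 3.24-fold higher (2.95 to 3.56), ITGA8 3.06-fold higher (2.66 to 3.53) and ITGA5 4.56-fold lower (4.33 to 4.798). In NP-ctrl over the same day, ITGA6 was 0.683 times (0.599 to 0.779), ITGA8 1.34 times (1.14 to 1.58) and ITGA5 0.524 times (0.507 to 0.542) its day 2 level. ITGA6 was thus above its day 2 level after replating and below it in NP-ctrl.

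By a difference of at least 1 in log2(FPKM + 1), 2 of the 9 genes differed between passaged and NP-ctrl cells on day 3, ITGA6 upward and ITGA5 downward, where 8.49% of all genes did (5.02% higher and 3.48% lower). Against NP-IWP2 and against day 2, ITGA8 joined them, where 8.7% (3.65% higher, 5.05% lower) and 11.8% (6.78% higher, 5% lower) of all genes differed. None of the 9 differed by as much between NP-ctrl day 3 and day 2, where 8.71% did, although ITGA5 was near it at -0.92 and passed it as TPM (-1.02). ITGB1 and ITGB5 were 0.890 and 0.946 times their NP-ctrl level on day 3, and both differences turned positive when FPKM was rescaled to TPM, which moved the median of all genes to 0.28. On the TPM scale ITGA8 (1.38) and ITGA1 (1.19, from 0.49) also passed the difference of 1 against NP-ctrl, ITGA1 passed it against NP-IWP2 (1.33) and ITGAV against day 2 (1.09), and against NP-ctrl ITGA5 no longer did (-0.96), while ITGA5, ITGA6 and ITGA8 kept their direction under every scaling tried. Of all genes that differed from NP-ctrl, 59.1% were higher in passaged cells, against 50.03% with DESeq2 size factors and 75.0% as TPM, and of those that differed from day 2, 57.6% were, against 47.8% and 67.2%. These comparisons rest on single libraries, of which the passaged one had the low mitochondrial share, and that share's part in them was not tested.

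**Figure D2:**
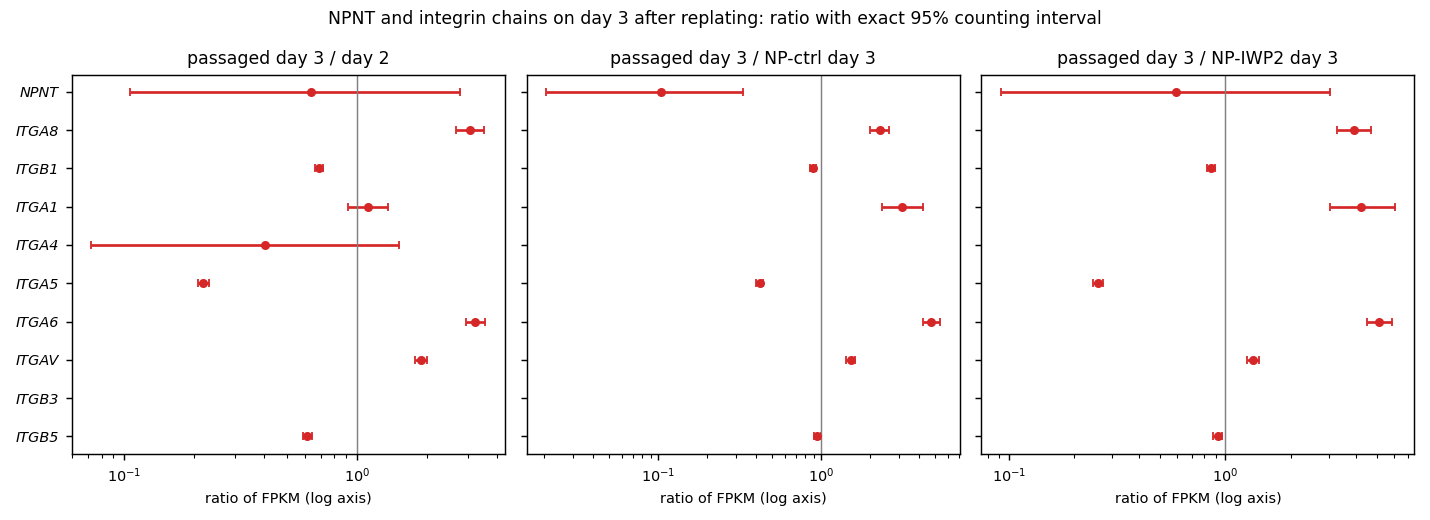
Ratio of levels in the passaged day 3 library to day 2 before replating, to NP-ctrl day 3 and to NP-IWP2 day 3 (x axis, log scale) for each gene (y axis), with exact 95% intervals for counting error. The intervals of ITGA6, ITGA8 and ITGAV lie to the right of 1 in all 3 panels and those of ITGA5, ITGB1 and ITGB5 to the left. Genes with 3 counts or fewer in both libraries have no point.

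The make-up of the alpha chains differed between libraries. Of the summed FPKM of 18 alpha chains, ITGA6 held the largest share on days 0 and 1 (38.2% and 25.5%) and ITGA5 on day 2 (66.0%). On day 3 ITGA5 still held 47.7% in NP-ctrl and 60.8% in NP-IWP2, against 19.4% in passaged cells, where ITGAV led with 24.4%. ITGA8 was the leading alpha chain in NP-ctrl on days 5 and 7 (28.4% and 25.7%) and in NP-IWP2 on day 5 (30.0%). By day 10 it held 21.4% in NP-ctrl, 8.01% with IWP2 and 0.454% after passaging. ITGAV held 53.6%, 62.1% and 62.2% in passaged cells on days 5, 7 and 10, against 25.2% in NP-ctrl and 44.3% with IWP2 on day 10. Among 8 beta chains, ITGB5 led on days 0 to 3 in every library, and ITGB1 led in every library of days 7 and 10, with 59.0% to 73.0%.

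**Figure D3:**
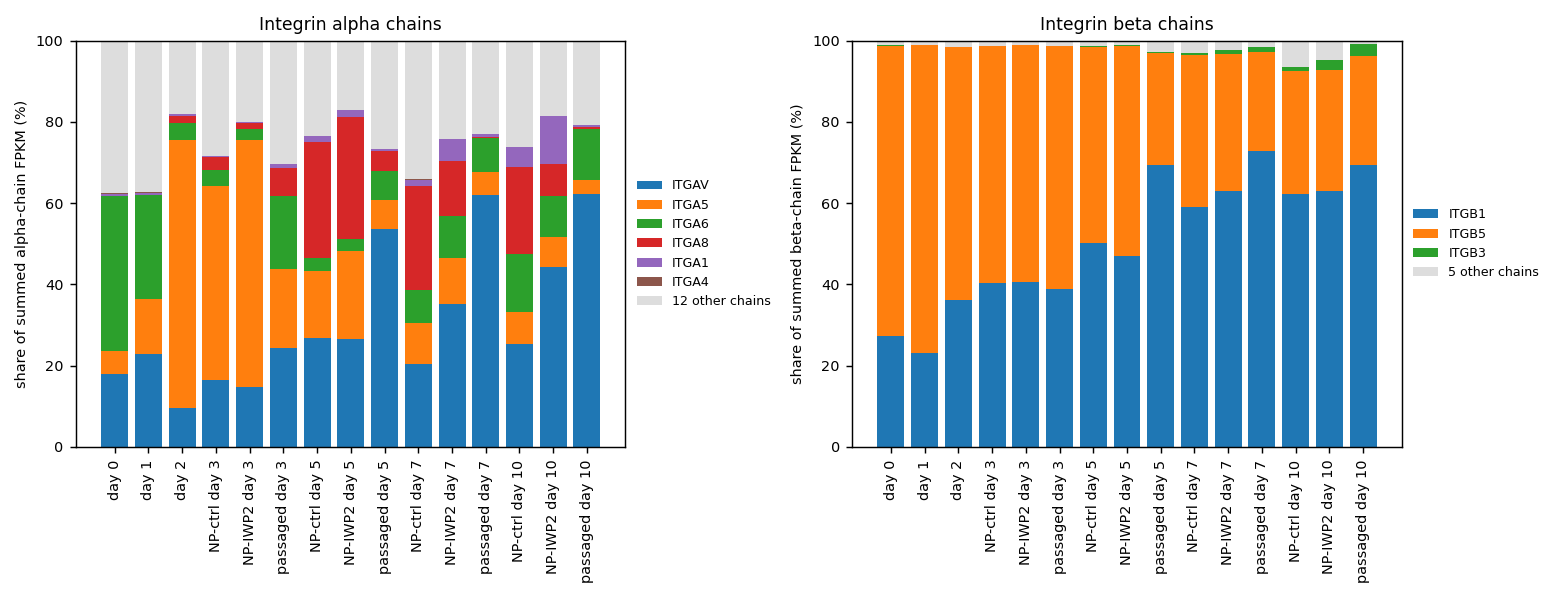
Share of the summed FPKM of 18 alpha chains (left) and 8 beta chains (right) in percent (y axis) in each of the 15 libraries (x axis), with the named chains in colour and the others in grey. ITGA8 takes 28.4% of alpha-chain FPKM in NP-ctrl on day 5 and 0.454% in passaged cells on day 10, where ITGAV takes 62.2%.

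Other genes of integrin adhesion were counted over 5 lists that hold none of the 10 genes, of which 66 passed the filter. The lists were chosen with earlier results of these data known. The counts and the p-values of single genes in the arm contrasts, here and below, are thus a description, and nothing is read from them. In passaged against NP-ctrl cells 13 of the 66 passed the test, 5 higher and 8 lower, where 4.4% of all genes were called. EGFL6 and ITGA11, among the 13, passed the filter only through static libraries. In passaged against NP-IWP2 cells 8 passed, 5 higher and 3 lower, where 1.33% were called. None passed in edgeR in NP-IWP2 against NP-ctrl, with 4 at an unadjusted p under 0.05 and 0 by DESeq2, although 4 passed with only the 2 compared arms, 3 with no filter and 1 without day 3. No slope difference passed in edgeR, where the unadjusted p was below 0.05 in 16 genes for passaged against NP-ctrl, 5 for NP-IWP2 against NP-ctrl and 9 for passaged against NP-IWP2, and 11, 1 and 2 by DESeq2. For passaged against NP-ctrl, 5 slope differences passed with no filter, 1 without day 5 and 1 in limma on log2(FPKM + 1). With day, 36 passed, where 28.3% of all genes did. ITGB6, ITGA10, ITGA11, EGFL6, VTN, VCAM1 and LIMS2 are among these and passed the filter only through libraries of days 5 to 10. The counts by day, here and by list below, are thus a description and nothing is read from them. The 13 became 22 without day 3, 8 without day 10, 5 without day 5 and 2 without day 7, and the 8 became 13, 2, 1 and 0 in the same order. In limma on log2(FPKM + 1) they became 1 and 0, and with no day block both became 0. They were 21 and 11 by DESeq2 and 23 and 19 with no filter.

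Of 17 other integrin chains, 10 passed the filter and 4 differed between passaged and NP-ctrl cells, with a list median log2 change of -0.26 against -0.0025 over all genes. ITGA7, a laminin receptor chain of muscle, rose by 1.79 on the log2 scale (SE 0.18, edgeR adjusted p = 0.00078) and was 20.1 FPKM in passaged cells on day 10 against 5.78 in NP-ctrl and 8.06 with IWP2. ITGA2, a collagen receptor chain, was higher by 2.42 (SE 0.43, edgeR adjusted p = 0.012) at levels of 0.35 to 2.20 FPKM in passaged cells. ITGA11, another collagen receptor chain, was lower, at -3.43 on the log2 scale (SE 0.60), at 4.07 FPKM in NP-ctrl on day 10 against 0.44 with IWP2 and 0.20 after passaging. ITGA11 reached 1 FPKM only in static libraries, so its call is not independent of the filter and is a description. ITGA9, which binds tenascin, was lower, at -1.64 on that scale (SE 0.40, edgeR adjusted p = 0.044). ITGA7 and ITGA2 also passed against NP-IWP2, at log2 changes of 1.40 (SE 0.18, edgeR adjusted p = 0.0054) and 2.06 (SE 0.43, edgeR adjusted p = 0.043). On day 3, ITGA3, a laminin receptor chain, was 6.82 FPKM in passaged cells against 2.37 in NP-ctrl, and ITGA7 7.76 against 3.01. With day, 5 of the 10 rose and 2 fell, ITGA2B and ITGA9.

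Of 12 other ligands bound through an RGD motif or listed with them, 11 passed the filter and 4 differed between passaged and NP-ctrl cells (list median -0.46). EGFL6, a relative of nephronectin that α8β1 also binds, was 36.1 FPKM in NP-ctrl, 5.27 with IWP2 and 0.03 after passaging on day 10. EGFL6 reached 1 FPKM only in static libraries, so its calls against both static arms are not independent of the filter and are a description. VTN, vitronectin, was lower, at -3.45 on the log2 scale (SE 0.72, edgeR adjusted p = 0.023), with 192, 61.7 and 4.69 FPKM on day 10. EDIL3 was lower, at -1.44 (SE 0.25, edgeR adjusted p = 0.011). THBS1, thrombospondin 1, was higher by 1.79 (SE 0.38, edgeR adjusted p = 0.026), with 15.3 FPKM in passaged cells on day 10 against 4.51 in NP-ctrl. Against NP-IWP2, SPP1 (osteopontin) was higher and EGFL6, EDIL3 and MFGE8 were lower in passaged cells. On day 3, TNC, tenascin-C, was 65.0 FPKM in passaged cells against 11.1 in NP-ctrl, 6.22 in NP-IWP2 and 13.2 on day 2. FN1, fibronectin, was 135 FPKM there against 65.6 in NP-ctrl and 27.7 on day 2, and TGFB1 was 13.1 against 65.6 and 34.3. EDIL3 was 3.83 FPKM in passaged cells on day 3 against 10.5 in NP-ctrl. With day, 8 of the 11 rose and 1, MFGE8, fell.

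The FRAS1 and FREM genes encode basement membrane proteins that hold nephronectin at the epithelial surface, and GRIP1 their intracellular partner. Of these 5 genes, 4 passed the filter, and FREM1 and GRIP1 were lower in passaged than in NP-ctrl cells (list median -0.82). FREM1 had -2.66 on the log2 scale (SE 0.61, edgeR adjusted p = 0.035), with 31.5 FPKM in NP-ctrl on day 10, 19.1 with IWP2 and 3.32 after passaging. GRIP1 had -1.22 (SE 0.28, edgeR adjusted p = 0.032). No gene of this list passed without day 5, without day 7 or without day 10. FRAS1, FREM2 and GRIP1 rose with day.

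Of 8 ligands of the other alpha chains, VCAM1, which α4β1 binds, was higher in passaged cells by a log2 change of 4.09 against NP-ctrl (SE 0.58, edgeR adjusted p = 0.0041) and by 2.99 against NP-IWP2 (SE 0.53, edgeR adjusted p = 0.023). VCAM1 was 379 FPKM in passaged cells on day 10 against 51.9 in NP-IWP2 and 13.2 in NP-ctrl, while its receptor chain ITGA4 had 5, 3 and 0 counts in these libraries. The list median was -0.07. LAMA1, a laminin chain, was 44.5 FPKM in passaged cells on day 3 against 21.1 in NP-ctrl. Of 34 adaptors and kinases, 33 passed the filter and 2 differed between passaged and NP-ctrl cells (list median -0.09). FERMT1, kindlin-1, was higher by 1.17 (SE 0.18, edgeR adjusted p = 0.0052) and by 0.98 against NP-IWP2 (SE 0.17, edgeR adjusted p = 0.024). PTK2B, a kinase related to focal adhesion kinase, was lower, at -2.07 on the log2 scale (SE 0.49, edgeR adjusted p = 0.037). On day 3, FLNA, filamin A, was 169 FPKM in passaged cells against 63.6 in NP-ctrl and TNS3, a tensin, 6.30 against 2.53. With day, 6 of the 8 ligands rose, and 9 adaptors rose and 2 fell.

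**Figure D4:**
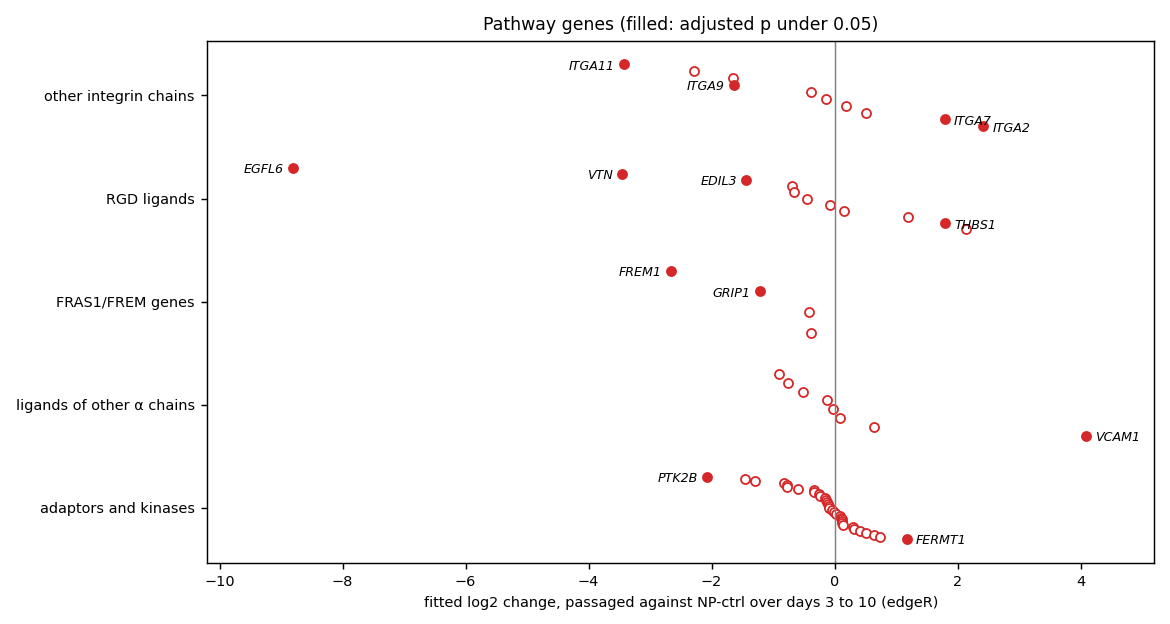
Fitted log2 change in passaged against NP-ctrl cells over days 3 to 10 (x axis) for each of the 66 other adhesion genes that passed the filter, by list (y axis), filled where the edgeR adjusted p was under 0.05. VCAM1, at 4.09, is the highest filled point, and EGFL6, whose fitted value rests on passaged libraries with 0 counts, is the lowest. EGFL6 and ITGA11 passed the filter only through static libraries.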

How the data were processed

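RNA from 15 cultures of H1 cells, 1 per group, was sequenced by the authors. The deposited table holds counts per gene, FPKM made from them by total count and exon length, and gene coordinates and exonic length. The submitters' processing notes name cutadapt 1.9.1, HISAT2 2.0.1, HTSeq 0.6.1, DESeq2 and hg38. The annotation release and strand setting are not given in the sources used here, so reads of overlapping or antisense genes cannot be separated. The library kit named is for long reads, whereas these tools are for short reads.

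Deposited counts were tested with edgeR 4.0.16 (quasi-likelihood, TMM, R 4.3.3) over genes with FPKM of at least 1 in at least 1 library. Arm effects had day as a block, the day effect had arm as a block, and slope differences were fitted on log2(day). Each used the 12 libraries of days 3 to 10, with Benjamini-Hochberg adjustment and a threshold of 0.05. The day effect was a joint test over the days, and its direction was that of day 10 against day 3. DESeq2 1.42.0 and limma 3.58.1 were alternatives. The code was tested on simulated data. Single libraries were compared by log2(FPKM + 1), and by ratios of counts per library total with exact Clopper-Pearson intervals, which with the floor of 3 counts cover counting error only. Promoters were taken from RefSeq (9 of the 10 genes matched) and overlaps between genes from GENCODE 44.

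The genes and lists were chosen with earlier results of these data known. All 10 genes were named. From the lists, up to 3 genes per list, contrast and direction with the largest log2 change past the threshold (or, on day 3, the largest difference of at least 1) were named, and the 5 protein-coding genes most correlated with NPNT and with ITGA8. Markers were given as summed FPKM. ITGA4 had no fit.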

Additional observations from a re-analysis of the deposited data

Results flagged for a closer look

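ITGA1 is listed because its slope difference between passaged and NP-IWP2 cells over days 3 to 10 was called in the main fit. The log2 slope per doubling of day was lower in passaged than in NP-IWP2 cells by -3.40 (SE 0.43, edgeR adjusted p = 0.046), and the level ran from 0.17 to 16.8 FPKM in NP-IWP2 and from 0.73 to 0.90 in passaged cells between days 3 and 10. The adjusted p ranged from 5.4e-10 (DESeq2) to 0.33 over the alternatives, and limma, each fit without 1 day and a slope on day (0.33) gave no call. ITGA1 passed the filter only through libraries of days 5 to 10, most of them static. The call is thus not independent of the filter and is a description.

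ITGA8 is listed because all libraries of days 5 to 10 lay below day 3 in passaged cells and above day 3 in both static arms, so that day 10 was 0.123 times day 3 in passaged cells, against 12.2 times in NP-ctrl and 7.30 times in NP-IWP2. This contrast of directions was found by inspection. The slope test of the same libraries gave edgeR adjusted p-values of 0.19 against NP-ctrl and 0.67 against NP-IWP2.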

How the results depend on the processing

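The direction of each called arm contrast of NPNT and ITGAV held under every alternative run. Counts of genes depended on the method. Leaving out 1 day in turn gave 133 to 2373 called genes for passaged against NP-ctrl (933 with all days), 0 to 35 for NP-IWP2 against NP-ctrl (4), 13 to 675 for passaged against NP-IWP2 (282), 2480 to 5307 for the day effect (6005), and 5 to 182 (95) and 0 to 50 (8) for the slope differences of passaged against NP-ctrl and against NP-IWP2. The highest arm counts came without day 3 and the lowest without day 7, with NP-IWP2 against NP-ctrl also at 0 without day 5 and without day 10. Without the FPKM filter the arm counts were 2571, 372 and 1368, and the 2 passaged slope counts 398 and 48. DESeq2 gave 2150, 61 and 886 for the arms and 1523, 18 and 253 for the slopes of passaged against NP-ctrl, NP-IWP2 against NP-ctrl and passaged against NP-IWP2. The edgeR count for the slope of NP-IWP2 against NP-ctrl was 0, with 1459 genes at an unadjusted p under 0.05. limma on log2(FPKM + 1) gave 152, 0 and 6 for the arms and 24 and 1 for the passaged slopes, and with a pseudocount of 0.1 it gave 148, 0 and 17, and 51 and 0. Without the day block the arm counts were 1, 0 and 2, and with only the 2 compared arms 109, 277 and 163. A slope on day gave 34 and 1. On day 3 the counts of genes differing by at least 1, in the order passaged against NP-ctrl, NP-IWP2 and day 2 and NP-ctrl against day 2, were 1801, 1844, 2498 and 1847. They were 4830, 4523, 5753 and 4928 with a pseudocount of 0.1, 4489, 3835, 5197 and 3863 as TPM, and 155, 213, 421 and 294 for a difference of at least 2. The share higher in passaged than in NP-ctrl cells was 59.1%, and 50.03% with DESeq2 size factors and 75.0% as TPM. The cause of these differences was not tested.

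Slope differences that failed the test turned sign as follows. For passaged against NP-ctrl, ITGB5 was 0.09, -0.053 and -0.056 in limma with pseudocounts of 1 and 0.1, and -0.12 to 0.99 over the fits without 1 day. For NP-IWP2 against NP-ctrl the fits without 1 day gave -1.30 to 0.030 for ITGA8, -0.22 to 0.32 for ITGA6 and -0.52 to 1.26 for ITGB3. For passaged against NP-IWP2 they gave -0.26 to 0.45 for ITGB1, -0.45 to 1.00 for ITGAV and -0.29 to 0.90 for ITGB5, which was 0.00914 as a slope on day. No paired analysis was possible because each group had 1 library and the replicate numbers name nothing shared. The arms were compared with day as a block instead.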
